A study of Mus musculus with 12 samples.

Results

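The myogenic regulatory factors, their partners of the MEF2 family and the satellite cell factor Pax7 were examined in skeletal and heart muscle of tumour-bearing mice. The 8 genes were Myod1, Myog, Myf5, Myf6, Pax7, Mef2a, Mef2c and Mef2d, taken from the 19536 genes that could be named on the array. Each was found by its symbol, and where an array carried several transcripts of a gene the brightest on average was used, which applied to Mef2d alone. All 8 were measured, none was removed by a filter, and the rule used no measured value other than that average.

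The mice were Balb/c-DBAj hybrids aged 10 to 11 weeks. C26 mice carried C26 carcinoma cells, a mouse colon carcinoma line widely used as a model of cancer cachexia, under the skin of the flank. Control mice, called NTB for non-tumour-bearing, received 100 µl of the culture medium alone. The tissues were the whole gastrocnemius, a muscle of the calf, and the whole heart, from separate cohorts, so that a difference between the muscles was also a difference between cohorts. Each of the 4 groups (C26 gastrocnemius, NTB gastrocnemius, C26 heart and NTB heart) had 3 replicates on 1-colour Affymetrix arrays, 12 arrays in all. Values are log2 expression levels as deposited, a step of 1 being a doubling, and the number of arrays limited their precision.

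Myod1, Myf5, Myog and Myf6 encode the myogenic regulatory factors, basic helix-loop-helix proteins that bind E-box motifs as dimers with E proteins. Myod1 and Myf5 commit cells to the muscle lineage, Myog drives the differentiation and fusion of myoblasts, and Myf6 (MRF4) is the family member known for its high level in adult fibres. Pax7 marks satellite cells, the stem cells that lie beneath the sheath of a fibre. The MEF2 proteins bind A/T-rich motifs in promoters of contractile and metabolic genes, act together with the myogenic factors, and are held back by class IIa histone deacetylases, which calcium-dependent kinases release.

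The tissues carried the markers of their labels. All 8 skeletal fibre markers were higher in NTB gastrocnemius than in NTB heart (median difference 7.45) and all 8 cardiomyocyte markers were lower (median -5.77). Medians over the transcripts of an array lay between 5.93 and 6.09, so that the levels of Myod1, Myog, Myf5 and Myf6 in heart lay at or below the middle of the array. Correlations were taken over C26 and NTB arrays of a muscle together, so they hold any tumour effect as well as the spread. Hearts correlated closely, with a mean Pearson r between 0.984 and 0.987 to the other hearts. Gastrocnemius arrays ranged from 0.958, in C26 gastrocnemius 3, to 0.972. For Mef2c, Myf6 and the listed genes whose call ended without that array, the value without it is given too. In bulk muscle, fewer cells of a type and less RNA per cell cannot be told apart.

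In C26 gastrocnemius Mef2c fell and Myf6 rose, and the other 6 genes did not pass the test. Over all genes 11.8% passed in this comparison (6.42% higher and 5.43% lower), at an adjusted p under 0.05 in limma, a linear model over all 12 arrays with Benjamini-Hochberg adjustment over the 19536 genes. The C26 and NTB arrays did not overlap for 2 of the 8 genes, 1 in each direction, against 19.4% of all genes (9.97% higher and 9.39% lower). The median change of the 8 genes was 0.06, against -0.00 over all genes.

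Mef2c, the MEF2 gene known for its part in fibre type and sarcomere genes, was at 9.23, 9.17 and 8.45 in C26 gastrocnemius 1 to 3 and at 10.89, 11.11 and 11.11 in NTB gastrocnemius 1 to 3. The groups did not overlap, and the highest C26 array lay well below the lowest control. The difference of the means was -2.09 ± 0.17 (SE, n = 3 against 3), a 4.25-fold lower level with a 95% confidence interval from -2.45 to -1.73 and a limma adjusted p of 1.323e-06. By size it was the 34th largest fall of all genes, and by p value it stood at rank 42 among them. The lowest C26 value was that of array 3, the array that stood apart, and without it the change was -1.84 (adjusted p = 2.067e-08). Mef2c lies on chromosome 13, from 83504017 to 83667079 in assembly GRCm38.p6.

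The array carried a single transcript of Mef2c, whereas RefSeq gives 3 transcription starts with a sequence for this gene, so its value cannot be assigned to a start. The 250 bases before each start are shown because Mef2c was the gene of the group with the largest tumour difference. They are from RefSeq on GRCm38.p6, plus strand, with E-boxes in capitals (CANNTG, which reads the same on both strands).
Mef2c start 1, chr13:83503784-83504033: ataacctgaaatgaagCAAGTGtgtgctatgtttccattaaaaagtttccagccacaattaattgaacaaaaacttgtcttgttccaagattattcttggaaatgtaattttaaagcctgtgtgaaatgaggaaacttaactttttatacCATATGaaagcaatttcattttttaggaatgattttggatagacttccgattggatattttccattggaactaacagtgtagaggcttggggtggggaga
Mef2c start 2, chr13:83523406-83523655: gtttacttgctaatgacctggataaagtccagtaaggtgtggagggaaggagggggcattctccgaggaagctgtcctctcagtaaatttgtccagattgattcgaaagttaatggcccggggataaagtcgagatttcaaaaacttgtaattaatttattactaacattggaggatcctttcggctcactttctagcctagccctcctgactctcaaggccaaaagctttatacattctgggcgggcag
Mef2c start 3, chr13:83573357-83573606: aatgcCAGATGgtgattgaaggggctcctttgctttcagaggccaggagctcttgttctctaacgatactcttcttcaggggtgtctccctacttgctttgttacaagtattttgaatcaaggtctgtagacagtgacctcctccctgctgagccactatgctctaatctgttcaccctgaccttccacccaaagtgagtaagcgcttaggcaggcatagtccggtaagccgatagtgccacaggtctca
Start 1 had E-boxes at -234 (CAAGTG) and -100 (CATATG), start 2 had none and start 3 had one at -245 (CAGATG), counted from the start to the motif's 5′ base. An E-box stood in 72.3% of 32851 windows of 300 bases (250 before and 50 after a start) over all genes, so its presence is common. The MEF2 consensus was searched on both strands as exact YTAWWWWTAR (Y is C or T, W is A or T, R is A or G). An exact match was found in none of the 3 windows and in 3.19% of all windows. The stretch gtaattttaa before start 1 differs from the consensus in its first base only. Near matches of this kind were not counted, so a MEF2 site of looser form is not excluded. A match of letters describes the sequence and does not show binding.

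Myf6 moved the other way. It was at 11.50, 11.62 and 11.09 in C26 gastrocnemius 1 to 3 and at 10.64, 10.26 and 10.56 in the NTB arrays, and the groups did not overlap. The change was 0.91 ± 0.15 (95% interval 0.58 to 1.24), a 1.88-fold higher level with a limma adjusted p of 0.001009, and Myf6 had rank 292 among the rises. Without C26 gastrocnemius 3, which had the lowest C26 value, the change was 1.07 (adjusted p = 5.399e-05). Myf6 lies beside Myf5 on chromosome 10, Myf6 from 107492848 to 107494723 and Myf5 from 107482908 to 107486927, and the change of Myf5 was 0.08.

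**Figure D1:**
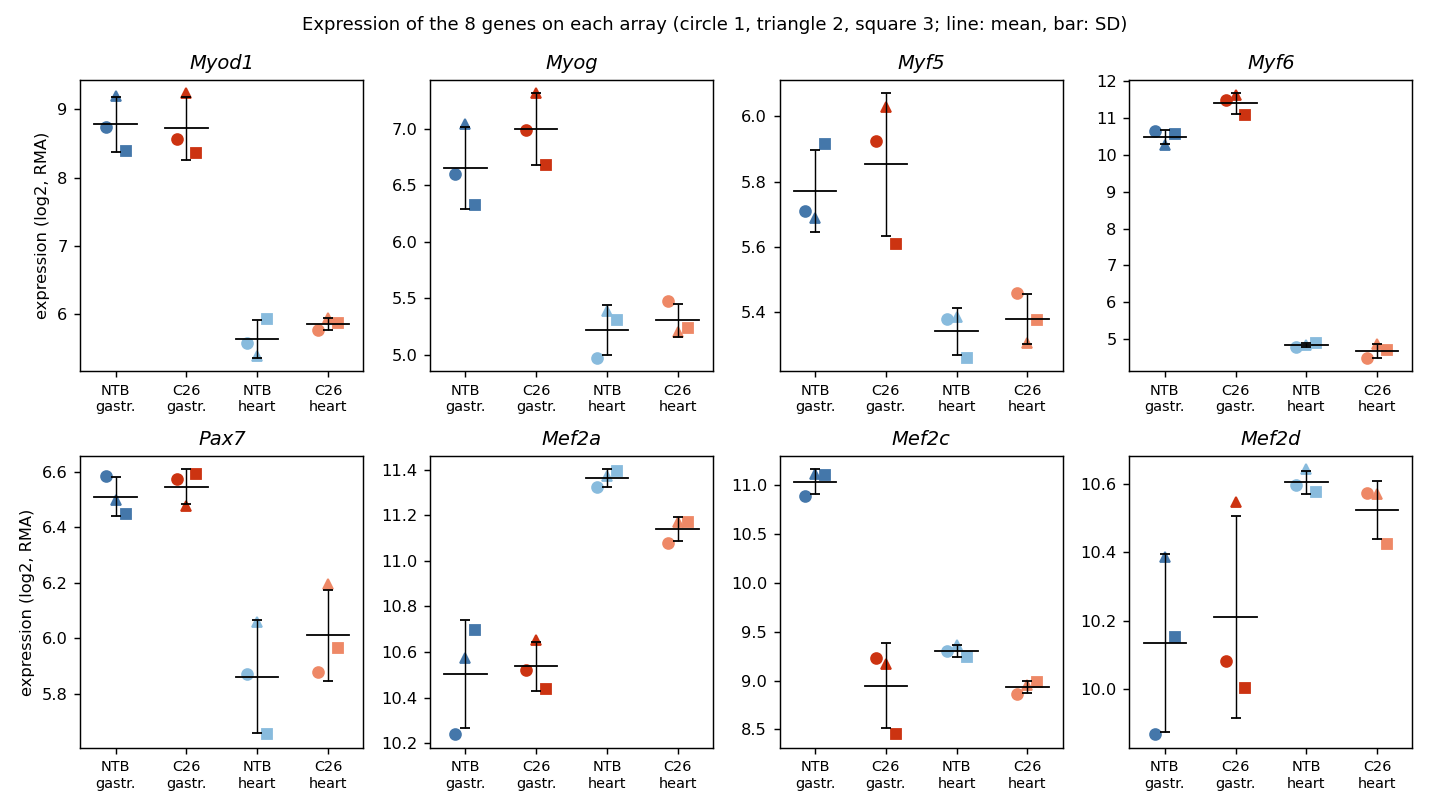
Log2 expression level (y axis) of each of the 8 genes, with a panel per gene, the 4 groups on the x axis, a point per array, a line at the mean of 3 arrays and a bar for the SD. The y axes differ between panels and do not start at 0. In gastrocnemius the 3 C26 values of Mef2c lie below all 3 NTB values and those of Myf6 above them, and the other genes overlap between C26 and NTB.

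The determination factors Myod1 and Myf5 showed no difference beyond the spread between arrays. Myod1 was at 8.56, 9.24 and 8.36 in C26 gastrocnemius and at 8.75, 9.20 and 8.39 in NTB gastrocnemius, with array 2 the highest in both groups. Its change was -0.06 ± 0.23, and the 95% interval from -0.54 to 0.43 leaves room for a difference of that size either way (adjusted p = 0.943). Myf5 was at 5.92, 6.03 and 5.61 against 5.71, 5.69 and 5.92, with a change of 0.08 ± 0.13 (interval -0.19 to 0.36). Its groups overlapped, and all 6 values lay near the middle of the array or below it.

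Myog, the differentiation factor, was at 6.99, 7.32 and 6.68 in C26 gastrocnemius and at 6.60, 7.05 and 6.33 in NTB gastrocnemius. The groups overlapped and the change of 0.34 ± 0.19 (interval -0.07 to 0.75) did not pass the test (limma adjusted p = 0.358). With 1 array left out the change of Myog ran from 0.18, without NTB gastrocnemius 3 or C26 gastrocnemius 2, to 0.54, without NTB gastrocnemius 2 (0.50 without C26 gastrocnemius 3), at adjusted p values of 0.088 to 0.754. Arrays of the same number lay in the same order in both groups, and C26 was the higher in 3 of 3 such pairs, by 0.39, 0.27 and 0.36. Same-numbered gastrocnemius arrays deviated together over all genes, which does not establish that the numbers pair them. With the number as a block in limma the adjusted p of Myog was 0.135, still not past the threshold. With arrays weighted by their quality the change was 0.62 and passed (adjusted p = 0.0116).

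The 250 bases before the start of Myog are shown with E-boxes in capitals, because E-boxes near this start are the textbook sites of the myogenic factors.
Myog, chr1:134289754-134290003, plus strand, RefSeq on GRCm38.p6: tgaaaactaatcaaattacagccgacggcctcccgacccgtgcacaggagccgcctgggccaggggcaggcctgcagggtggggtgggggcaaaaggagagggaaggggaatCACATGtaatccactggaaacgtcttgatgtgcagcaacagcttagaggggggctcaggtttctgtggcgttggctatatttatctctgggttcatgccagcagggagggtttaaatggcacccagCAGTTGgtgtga
The E-boxes were CACATG at -138 and CAGTTG at -12, and no exact match to the MEF2 consensus as searched was found in the window. The stretch ctatatttat in the bases shown differs from that consensus in its last base only. Such near matches were not counted, so a MEF2 site of looser form is not excluded. RefSeq start windows were available for 6 of the 8 genes, in 8 windows. Those of Myf5, Pax7 and Mef2d held neither motif.

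Pax7 was at 6.57, 6.48 and 6.59 in C26 gastrocnemius and at 6.59, 6.50 and 6.45 in NTB gastrocnemius. Its groups overlapped, with a change of 0.04 ± 0.13 and an interval from -0.24 to 0.31 (adjusted p = 0.941). Mef2a was at 10.52, 10.65 and 10.44 against 10.24, 10.58 and 10.70, a change of 0.03 ± 0.12 (interval -0.22 to 0.29). Mef2d was at 10.08, 10.55 and 10.00 against 9.87, 10.39 and 10.15, a change of 0.08 ± 0.15 (interval -0.25 to 0.40). The groups of Mef2a and Mef2d overlapped too, and the sign of Mef2d was the opposite (-0.11) on its second transcript on the array. The fourth MEF2 gene, Mef2b, had a difference of -0.03 and did not pass.

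**Figure D2:**
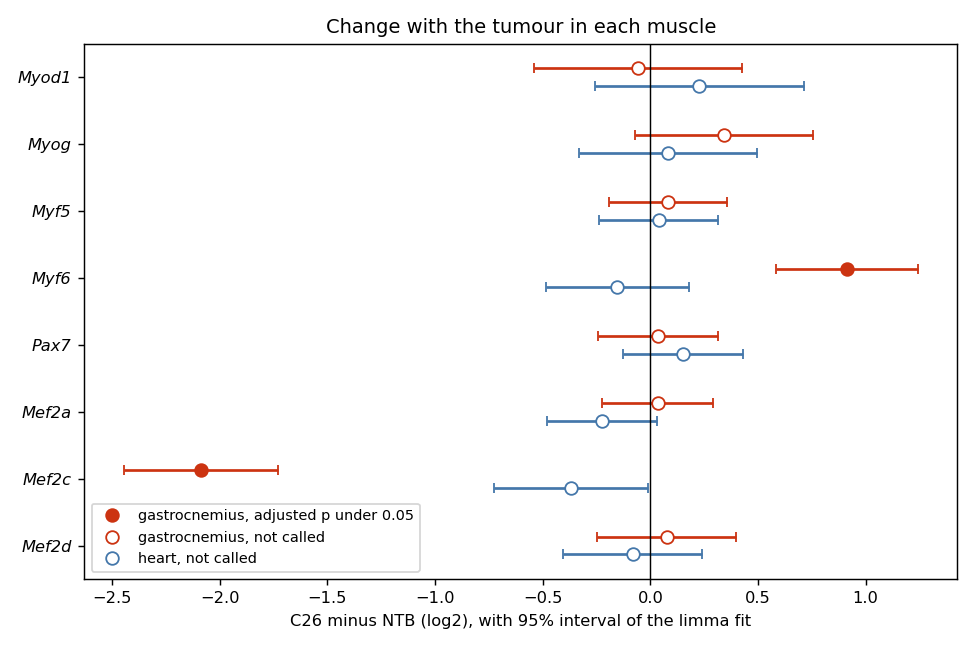
Change of the 8 genes between C26 and NTB (log2 difference of means, n = 3 against 3, with the 95% confidence interval of the fit), in gastrocnemius and in heart. Mef2c at -2.09 and Myf6 at 0.91 in gastrocnemius have intervals away from 0 and passed the adjusted test, and none of the 8 passed in heart.

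In C26 heart none of the 8 genes passed the limma test, where 3.22% of all genes did (2.13% higher and 1.1% lower). At an unadjusted p under 0.05 Mef2c was the 1 gene of the 8, against 12.1% of all genes. The 3 MEF2 genes lay lower in every C26 heart than in any NTB heart. Such a separation in either direction was found for 27.5% of all genes (14.2% higher and 13.4% lower). The median change of the 8 genes was -0.02, against 0.01 over all genes.

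Mef2c was at 8.87, 8.95 and 8.99 in C26 hearts and at 9.30, 9.37 and 9.24 in NTB hearts. The change was -0.37 ± 0.17 (interval -0.73 to -0.01), 1.29-fold lower, with an adjusted p of 0.389. Its call depended on the arrays that shared the estimate of the spread. With hearts fitted alone the adjusted p of Mef2c was 0.0054, with arrays weighted it was 0.0158, and without C26 gastrocnemius 3 it was 0.0297. Mef2a was at 11.08, 11.17 and 11.17 against 11.32, 11.37 and 11.40, a change of -0.22 ± 0.12 (adjusted p = 0.517, and 0.0301 with hearts alone). Mef2d was at 10.57, 10.57 and 10.42 against 10.60, 10.64 and 10.58, a change of -0.08 ± 0.15 (adjusted p = 0.937).

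RefSeq gives Mef2a a start window that holds the MEF2 consensus, and the site is shown because it was the only such match in the windows of the 8 genes. It spans the start, from -2 to 8, with the matched letters in capitals.
Mef2a, chr7:67372841-67372870, minus strand, RefSeq on GRCm38.p6: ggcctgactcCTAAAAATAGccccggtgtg

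The myogenic factors and Pax7 lay low in heart with and without the tumour. Myod1 was at 5.76, 5.94 and 5.87 in C26 hearts and at 5.57, 5.39 and 5.93 in NTB hearts, with overlapping groups and a change of 0.23 (adjusted p = 0.836). Myog was between 5.21 and 5.48 against 4.97 to 5.39 (change 0.08), and Myf5 between 5.31 and 5.46 against 5.26 to 5.39 (change 0.04). Myf6 was between 4.48 and 4.87 against 4.78 to 4.89 (change -0.15), and Pax7 between 5.88 and 6.19 against 5.65 to 6.06 (change 0.15). All 5 had overlapping groups.

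**Figure D3:**
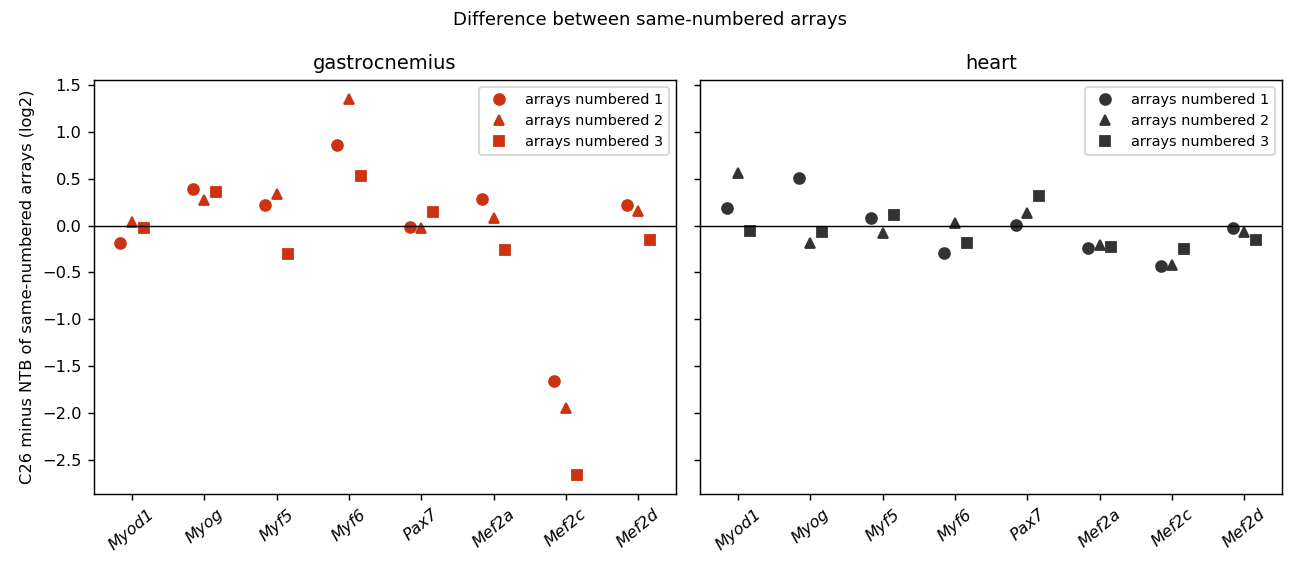
Difference between the C26 and the NTB array of the same number (log2), for each of the 8 genes, in gastrocnemius (left) and heart (right), with a symbol per number. In gastrocnemius the differences of Mef2c are -1.66, -1.94 and -2.66, those of Myf6 0.86, 1.35 and 0.53 and those of Myog 0.39, 0.27 and 0.36. Whether the numbers pair the arrays is not established in either muscle.

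The tumour effects in the muscles were then compared directly, as the effect in gastrocnemius minus the effect in heart. Over all genes 3.97% passed (1.97% more positive and 2% more negative), and Mef2c and Myf6 were the 2 of the 8 that did. For Mef2c the difference was -1.72 ± 0.24 (limma adjusted p = 0.0005843), from -2.09 in gastrocnemius and -0.37 in heart. For Myf6 it was 1.06 ± 0.22 (adjusted p = 0.01183), from 0.91 and -0.15. The other 6 differences lay between -0.29 (Myod1) and 0.26 (Mef2a and Myog).

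Between the muscles of NTB mice all 8 genes differed, where 40.5% of all genes did (15.8% higher in gastrocnemius and 24.8% lower). Myf6 differed the most, 10.49 ± 0.20 (SD, n = 3) in gastrocnemius against 4.84 ± 0.06 in heart, a difference of 5.65 ± 0.15 (50.3-fold, limma adjusted p = 3.867e-13). Myod1 was 3.15 ± 0.23 higher in gastrocnemius (8.88-fold), Mef2c 1.73 ± 0.17 (3.33-fold), Myog 1.43 ± 0.19 (2.70-fold), Pax7 0.65 ± 0.13 (1.57-fold) and Myf5 0.43 ± 0.13 (1.35-fold, adjusted p = 0.01438). Mef2a was lower in gastrocnemius by 0.86 ± 0.12 (1.82-fold) and Mef2d by 0.47 ± 0.15 (1.39-fold, adjusted p = 0.02129). The groups of each gene did not overlap, as was so for 53% of all genes (21.6% higher and 31.4% lower), and at an unadjusted p under 0.05 46.7% of all genes differed. The call of Myf5 was lost without NTB heart 3 (adjusted p = 0.0586) or NTB gastrocnemius 3 (0.0674), and that of Mef2d without NTB heart 1 (0.0542) or 2 (0.0659), without NTB gastrocnemius 1 (0.114), on median-centred arrays (0.0682) and on its second transcript (0.102).

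Set in order over the 4 groups, Mef2c was highest in NTB gastrocnemius (11.04 ± 0.13, SD, n = 3), then in NTB heart (9.30 ± 0.06), C26 gastrocnemius (8.95 ± 0.43) and C26 heart (8.93 ± 0.06), and the last pair overlapped. Myf6 was highest in C26 gastrocnemius (11.40 ± 0.28), then in NTB gastrocnemius (10.49 ± 0.20), with NTB heart (4.84 ± 0.06) and C26 heart (4.69 ± 0.19) overlapping. Over the 12 arrays the genes whose levels ran most like Mef2c were Calm3, a calmodulin gene, with a Pearson r of 0.989, Tfrc, the transferrin receptor, with 0.986, and Slc37a4, the glucose-6-phosphate transporter, with 0.983. Their changes in C26 gastrocnemius were -1.70, -3.06 and -2.98. For Myf6 they were Mospd1 (r of 0.998), Golga4 (0.997) and Cacng1 (0.997), with changes of 0.48, 0.33 and 0.67. The 12 arrays share the contrast between the muscles, so these values describe the pattern over groups only.

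Genes around the factors were followed by lists in C26 gastrocnemius, beginning with partners and inhibitors. Over all genes 11.8% passed in C26 against NTB gastrocnemius (6.42% higher and 5.43% lower), the share to set beside each list count. The E proteins Tcf3, Tcf4 and Tcf12, the dimer partners of the myogenic factors, had differences of 0.10, -0.24 and 0.03 and none of the 3 passed. Of 16 Id and other inhibitor genes 0 rose and 3 fell, with a median of -0.14. Bhlhe41, a helix-loop-helix repressor of MyoD activity, was at 8.25, 7.93 and 7.08 against 9.32, 9.34 and 9.69, with no overlap, and fell by 1.70 ± 0.23 (limma adjusted p = 0.0001749). Its relative Bhlhe40 fell by 0.77 and the Notch target Hes1 by 0.60, the latter a call that failed when most of the arrays were left out in turn (highest adjusted p 0.143), with -0.35 without C26 gastrocnemius 3. Id1, Id2 and Id3, named after their values were seen, had differences of 0.17, -0.26 and -0.13 and did not pass.

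Of 14 factors upstream of the myogenic genes 1 rose and 2 fell (median -0.09). Eya3, a transcriptional coactivator, rose by 0.61, and the homeobox genes Lbx1 and Six2 each fell by 0.63, Six2 losing its call when most of the arrays were left out in turn (highest adjusted p 0.159), with -0.41 without C26 gastrocnemius 3. Eya3 and Lbx1 kept their calls when any array was left out and lost them with gastrocnemius fitted alone (adjusted p = 0.0979 and 0.0657). Of 17 measured satellite cell markers besides Pax7, 2 rose and 0 fell, where 11.8% of all genes passed, and the median was 0.03. Sdc4, the surface proteoglycan syndecan-4, rose by 0.59 and Chrdl2 by 0.49, the latter not called without C26 gastrocnemius 2 or NTB gastrocnemius 1 or 3 (adjusted p up to 0.117), and with gastrocnemius fitted alone neither was called (Sdc4 adjusted p = 0.0918). The summed level of these 17 markers, taken as the log2 of the sum of their unlogged levels and so set mostly by the brightest, ran from 11.64 to 11.85 in C26 and from 11.64 to 11.83 in NTB gastrocnemius. Of 11 proliferation genes 0 rose and 1 fell, the replication helicase gene Mcm2 (-0.48), not called without NTB gastrocnemius 1 (adjusted p = 0.1).

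Of 22 differentiation and fusion targets of the myogenic factors 2 rose and 5 fell, where 11.8% of all genes passed. The list median was -0.10. Actc1, the cardiac actin that immature skeletal fibres also make, was at 8.85, 8.13 and 7.28 in C26 and at 10.86, 11.47 and 11.11 in NTB gastrocnemius. The groups did not overlap, and it fell by 3.06 ± 0.27 (8.34-fold, adjusted p = 2.621e-06 in limma). Mybph, a myosin-binding protein, was at 7.57, 7.13 and 6.90 against 10.37, 9.92 and 9.55 and fell by 2.74 ± 0.20 (adjusted p = 4.819e-07), again with no overlap. Chrne, the acetylcholine receptor subunit of adult endplates, fell by 1.24 and the membrane protein gene Cav3 by 0.69. The fifth was the cell cycle inhibitor Cdkn1c (-0.67), named after its value was seen. Cav3 was not called without NTB gastrocnemius 1 (adjusted p = 0.0897), nor Cdkn1c without NTB gastrocnemius 2 (0.0513).

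The cell cycle inhibitor Cdkn1a (p21) was at 8.83, 9.05 and 9.32 in C26 and at 6.68, 7.15 and 6.87 in NTB gastrocnemius and rose by 2.17 ± 0.19, and Rb1 rose by 0.50, a call lost with gastrocnemius fitted alone (adjusted p = 0.114). The remaining 15 did not pass. Among these, and named after their values were seen, were the fusion genes Mymk (-0.06) and Mymx (0.05). So were the embryonic and perinatal myosins Myh3 (-0.04) and Myh8 (-0.38), and the receptor genes Chrna1 (-0.06) and Chrng (-0.04). Ttn, also among the 15, was -0.63 on another of its transcripts and -0.21 on a further one (limma adjusted p = 0.0253 and 0.607 over all transcripts).

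**Figure D4:**
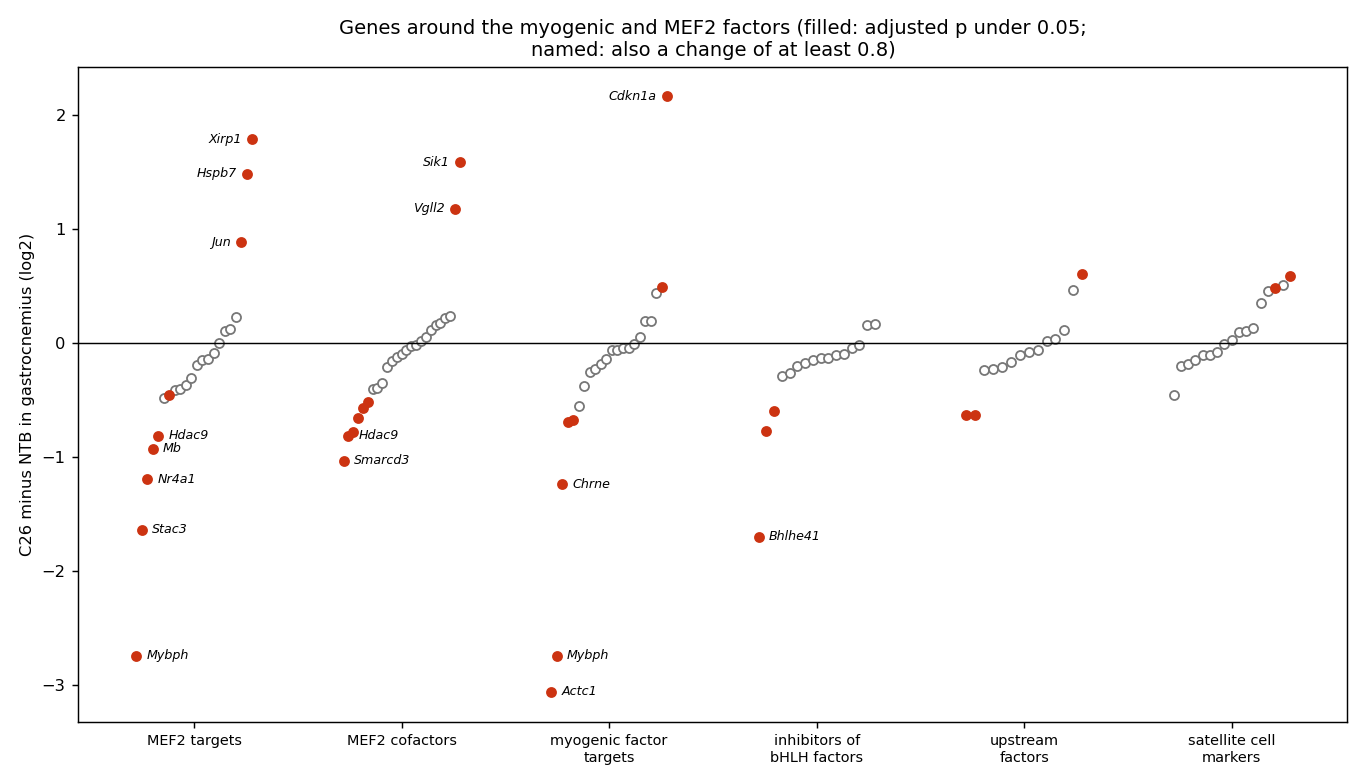
Change in C26 against NTB gastrocnemius (log2 difference of means, n = 3 against 3) of each gene of 6 lists, a point per gene, sorted within a list. Filled points passed the adjusted test, and names are given to those with a change of at least 0.8, from Actc1 at -3.06 to Cdkn1a at 2.17.

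Around MEF2, 2 of 25 cofactors, kinases and repressors rose and 6 fell, where 11.8% of all genes passed. The list median was -0.10. Sik1, a kinase that acts on class IIa deacetylases, was at 9.21, 9.88 and 9.79 against 7.83, 8.61 and 7.66 and rose by 1.59 ± 0.24 (limma adjusted p = 0.0004538). Vgll2, a cofactor of TEAD and MEF2 proteins in muscle, was at 9.31, 9.20 and 9.06 against 7.85, 8.20 and 7.97 and rose by 1.18 ± 0.13 (adjusted p = 1.685e-05). Neither gene's groups overlapped. Smarcd3, a subunit of the chromatin remodelling complex, fell by 1.03, the deacetylase gene Hdac9 by 0.81, and the calmodulin-dependent kinase genes Camk2a and Camk2g by 0.78 and 0.66. The calcineurin genes Ppp3cb (-0.57) and Ppp3ca (-0.52) completed the 6 and were named after their values were seen.

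The call of Camk2g failed when most of the arrays were left out in turn (highest adjusted p 0.198), with -0.38 without C26 gastrocnemius 3, that of Ppp3ca without NTB gastrocnemius 3 (0.065) and that of Ppp3cb without NTB gastrocnemius 2 or 3 (up to 0.0802). Without NTB gastrocnemius 3 the MEF2 cofactors had 3 that fell in place of 6. The deacetylase genes Hdac4 and Hdac5, named outside the rule for called genes, had differences of -0.02 and 0.16 and did not pass.

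Of 22 MEF2 target genes 3 rose and 6 fell, where 11.8% of all genes passed, and the median was -0.25. Stac3, a protein of excitation-contraction coupling, was at 9.25, 9.20 and 8.02 in C26 and at 10.23, 10.40 and 10.75 in NTB gastrocnemius and fell by 1.64 ± 0.25 (limma adjusted p = 0.0004992). Mybph, which is on both target lists, fell as given above, the nuclear receptor gene Nr4a1 by 1.20 and the myoglobin gene Mb by 0.93. Hdac9, on this list too, and Xirp2 (-0.45) completed the 6, named after their values were seen. Xirp1, an actin-binding protein of the fibre, was at 10.37, 10.24 and 9.75 against 8.07, 8.60 and 8.32 and rose by 1.79 ± 0.21 (adjusted p = 3.757e-05). The small heat shock protein gene Hspb7 rose by 1.49 and the transcription factor gene Jun by 0.89.

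Nr4a1 was not called without C26 gastrocnemius 1 or NTB gastrocnemius 2 or 3 (adjusted p up to 0.104), and Xirp2 failed when most of the arrays were left out in turn (up to 0.144), with -0.28 without C26 gastrocnemius 3. Without that array the median of the MEF2 target genes was -0.07.

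Markers of other cells moved in the same gastrocnemius arrays, where 11.8% of all genes passed. Of 7 fibroblast markers 0 rose and 5 fell, and their summed level on the same log2 scale was 12.21 to 12.61 in C26 and 13.02 to 13.75 in NTB gastrocnemius. Of 6 erythroid markers 3 rose, with sums of 13.32 to 13.54 against 12.18 to 12.37. Of 8 skeletal fibre markers 0 rose and 1 fell (Mylpf, -0.9995), and the sums were 16.29 to 16.41 against 16.44 to 16.51. Of 7 endothelial markers 2 rose (Pecam1 and Tek), with sums of 11.11 to 11.39 against 10.96 to 11.22. Of 7 macrophage markers 1 rose (Cd68), with sums of 8.90 to 9.62 against 8.94 to 9.31. Tek was not called without C26 gastrocnemius 1 or NTB gastrocnemius 1 or 3 (limma adjusted p up to 0.0977). With gastrocnemius fitted alone none of these 3 was called (Tek 0.157, Pecam1 0.0884 and Cd68 0.0549). Of 6 smooth muscle markers 0 rose and 1 fell (Smtn, -0.71). Of 6 adipocyte markers 1 rose (Fabp4, 0.89, a count that was 0 when most of the arrays were left out in turn), the list median was 0.72, and the sums were 10.59 to 12.11 against 10.39 to 10.78. Of 7 lymphocyte markers none passed, and the sums were 7.85 to 9.02 against 7.84 to 8.11. Both sums were highest in C26 gastrocnemius 3, the array that stood apart. The part of these shifts in the changes of Mef2c, Myf6 and the lists was not tested.

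The same lists were followed in C26 heart, where 3.22% of all genes passed (2.13% higher and 1.1% lower). Cdkn1a was at 10.61, 10.53 and 10.67 against 7.38, 7.54 and 8.17 and rose by 2.90 ± 0.19 (limma adjusted p = 6.556e-07), with no overlap. Of the other 21 differentiation targets the creatine kinase gene Ckm fell (-0.43). On another transcript of Ckm the change was -0.14 and did not pass (limma adjusted p = 0.847 over all transcripts). Of the 16 inhibitors Bhlhe41 fell by 1.09, so that it and Cdkn1a, and Hdac9 below, were called in both muscles in the same direction, and none of the 3 passed the test of the difference between muscles. Of the 25 MEF2 cofactors 2 fell, the kinase gene Camk2d (-0.62) and Hdac9 (-0.52), and the median was -0.13. Of the 22 MEF2 targets 4 fell, the sarcoplasmic reticulum gene Hrc (-0.66), the M-band gene Myom2 (-0.60), Hdac9 and Ckm, and the median was -0.11. None of the 3 E proteins, 14 upstream factors, 17 satellite cell markers or 11 proliferation genes passed.

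Each of these heart calls other than that of Cdkn1a was lost when any of several heart arrays was left out, with an adjusted p of up to 0.0931 for Bhlhe41, 0.112 for Ckm, 0.0915 for Camk2d, 0.186 for Hdac9, 0.122 for Hrc and 0.079 for Myom2. The MEF2 targets that fell numbered 0 without C26 heart 1 or NTB heart 1 or 3, and 5 cofactors fell without C26 gastrocnemius 3. In the same hearts 4 of 7 macrophage markers rose and the summed level of the 7 fibroblast markers was 13.62 to 13.72 in C26 and 13.10 to 13.19 in NTB hearts. The summed level of the 8 cardiomyocyte markers, of which none passed, was 15.10 to 15.21 in C26 and 15.24 to 15.28 in NTB hearts. That of the 8 skeletal fibre markers, of which Acta1 fell (-0.54), was 12.13 to 12.30 against 12.60 to 12.87. Both sums lay lower in every C26 heart, as the 3 MEF2 genes did. The skeletal fibre sum was set mostly by Acta1, at 12.08, 11.97 and 12.17 against 12.76, 12.50 and 12.56. The median change of the 8 skeletal fibre markers in heart was -0.0069. The sum of 7 Schwann cell markers was 11.57 to 11.67 against 11.20 to 11.22, with none past the test. The part of these markers in the heart values was not tested.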

How the data were processed

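Total RNA of whole gastrocnemius and heart (TRIzol, 250 ng per sample) was hybridised to Affymetrix MoGene-1_0-st-v1 arrays, per the labels' protocols. The deposited values used are log2 expression levels per transcript, made by the authors. RMA, GCOS, Partek and build mm8 appear without version or role, per the submitters' processing notes. The log2 scale was inferred from the values' range, and joint normalization of all arrays is not given in the sources used here. A second deposited table was used for gene names only, and 12 columns of per-sample values in it were not used, because their names are not those of the samples and carry unexplained codes.

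Of 35556 transcripts 23819 had a symbol, cut after 7 characters. A cut symbol was named where the mouse RefSeq gene table (GRCm38.p6) allowed 1 gene, which left 1705 of 7122 unnamed, and 16571 of 16697 shorter symbols matched. The 21988 named transcripts stood for 19536 genes, and the transcript with the highest mean was kept. Fgfr4 was the 1 list gene without a named transcript.

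In R 4.3.3 with limma 3.58.1, 1 model with 4 group means was fitted to all 12 arrays (lmFit, contrasts.fit, eBayes with trend, 8 residual degrees of freedom). Tests were two-sided and adjusted by Benjamini and Hochberg over 19536 genes, and rose, fell and called mean an adjusted p under 0.05. With 3 arrays against 3 an exact permutation test of a single value cannot go below p = 0.1, so none was run. The labels call the samples biological replicates. The fit was tested on simulated data for the gastrocnemius comparison (19536 genes). It called 18% of 100 genes changed by log2 0.5 and 86% of 100 changed by 1, with 6 false calls among 110. The simulated noise was independent between arrays, with the same SD for a gene in all 4 groups, and no other genes changed. In the real data many genes changed, and the gastrocnemius arrays correlated less closely than the hearts, over C26 and NTB together. These shares therefore do not give the power or false calls in the real data.

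The rule for named genes took all 8 factors, up to 4 called genes in each direction of a list, the largest first, and for each factor called in a tumour comparison the 3 genes with the highest Pearson r. The factors and lists were chosen with earlier results of these data known. Same-numbered arrays deviated together in gastrocnemius (r of 0.31, 0.33 and 0.50) and not in heart (0.09, -0.04 and 0.01). Gastrocnemius arrays of different number had r from -0.44 to 0.13. Deviations from a mean of 3 arrays cancel out and few matchings are possible, so this check cannot establish that the numbers pair the arrays. Alternatives were quantile normalization, median centring, 1 muscle fitted alone, eBayes without trend, array weights and the replicate block. Others were a filter on dim transcripts, all transcripts tested, the other transcript of Mef2d and each array left out.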

Additional observations from a re-analysis of the deposited data

Results flagged for a closer look

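The tumour effect differed between gastrocnemius and heart, by the test of the difference itself in limma, for Mef2c (-1.72, gastrocnemius minus heart, log2) and Myf6 (1.06) among the 8 factors. Among the listed genes it differed for the myogenic targets Mybph (-3.09), Actc1 (-2.90) and Chrne (-1.15) and the satellite cell marker Cd34 (-0.81). It also differed for the MEF2 cofactor Vgll2 (1.25) and the MEF2 targets Nr4a1 (-2.02), Stac3 (-1.69), Xirp1 (1.67) and Hspb7 (1.47). The call of Cd34 held in 8 of 20 settings and was lost without any 1 of the 6 heart arrays (adjusted p up to 0.127). That of Nr4a1 held in 14 of 20 and was lost without C26 heart 2 or 3, NTB heart 1 or 3 or NTB gastrocnemius 2 (adjusted p up to 0.0631). That of Stac3 was lost with all transcripts tested (0.0647). Among markers of other cells it differed for Col1a1 (-3.16), Col1a2 (-2.61), Dpt (-2.25), Col3a1 (-2.23) and Lum (-1.39) of fibroblasts and for Hba-a1 (1.11) and Hbb-b1 (1.09) of erythroid cells. The muscles came from separate cohorts, so muscle and cohort cannot be told apart.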

How the results depend on the processing

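Mef2c and Myf6 were called in gastrocnemius and in the difference of effects under every alternative run, at adjusted p values of at most 0.0183 and 0.0422 for Myf6. The number of the 8 factors called in heart was 0, but 2 with each muscle fitted alone, 1 with array weights, 1 without both gastrocnemius arrays numbered 3 (an alternative chosen after seeing the data) and 0 to 1 with 1 array left out (1 without C26 gastrocnemius 3). Over all genes, calls in gastrocnemius numbered 2315, 903 with the muscle alone and 4286 with array weights. In heart they numbered 630, and 2217, 2077, 1015 (replicate block), 1378 (without both arrays 3) and 330 to 1151 (1 array left out). For the difference they numbered 776, and 2469 with array weights, 1382 with the replicate block, 1644 without both arrays 3 and 463 to 1625 with 1 array left out. The replicate block changed no call of the 8 factors.

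Changes near 0 turned sign. With array weights Myod1 was 0.37 and Pax7 -0.021 in gastrocnemius, and Myod1 0.16 in the difference. Mef2a was -0.049 with quantile normalization, Pax7 -0.017 without both arrays 3, and Mef2d -0.11 in gastrocnemius and -0.090 in the difference on its other transcript. With 1 array left out, gastrocnemius changes ran from -0.32 to 0.15 for Myod1, -0.0057 to 0.20 for Myf5, -0.099 to 0.13 for Mef2a and -0.093 to 0.20 for Mef2d. Heart changes ran from -0.043 to 0.17 for Myog and -0.0024 to 0.076 for Myf5, and the differences from -0.044 to 0.17 for Myf5 and -0.011 to 0.28 for Mef2d. The cause of these shifts was not tested. The block could not be fitted between muscles, and Myf5 fell below the filter on dim transcripts.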
